A study of Mus musculus with 6 samples.

Results

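CDK inhibitors and D-type cyclins set the pace of the first gap phase of the cell cycle. The group described here held 10 genes: the CIP/KIP inhibitors Cdkn1a and Cdkn1b, the INK4 inhibitors Cdkn2a, Cdkn2b, Cdkn2c and Cdkn2d, the D-type cyclins Ccnd1, Ccnd2 and Ccnd3, and the kinase Cdk6. They were picked by gene symbol from the 49585 genes of the count tables, and all 10 passed the filter on low counts. The data are RNA-seq counts from tumoroids, cultures of C57BL/6 mouse intestinal adenoma cells grown in Matrigel with a ROCK inhibitor, Noggin, R-spondin, EGF and basic FGF, with 3 libraries for each of 2 genotypes. Both genotypes carried the Min allele of Apc (APC min/+) and Villin-Cre, a Cre transgene driven by a promoter of the intestinal epithelium. The knock-out was IKKa FL/FL and the wild type IKKa +/+, so both carried Cre and only the knock-out had floxed alleles of Chuk, which encodes the kinase IKKa. Neither the age of the mice nor whether the 3 libraries of a genotype came from separate mice is stated, so the spread that p-values measure here may be technical. The comparison asks how transcripts of the cell cycle brake and of its accelerator differed between adenoma cells with and without intact Chuk.

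D-type cyclins bind CDK4 or CDK6, and the active kinase phosphorylates the retinoblastoma protein and its relatives, which releases E2F factors that switch on genes of DNA replication. INK4 proteins bind CDK4 and CDK6 and block their assembly with cyclin D, whereas the CIP/KIP proteins p21 and p27 inhibit CDK2 complexes and also act as assembly factors for cyclin D complexes. In the intestine, Wnt and growth factor signals are known to raise cyclin D levels in crypts, and Cdkn2a, Cdkn2b and Cdkn1a are known for their induction in stressed, senescent or oncogene-expressing cells.

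Chuk counts were lower in every knock-out library, at 28.9, 24.4 and 34.9 CPM (counts scaled to library size with TMM factors, knock-out replicates 1 to 3) against 101, 106 and 95.8 CPM in the wild type (3.42-fold lower, log2 fold change -1.77, standard error 0.12, edgeR adjusted p = 8.6e-08). A count per gene does not separate reads of the floxed exons from the rest. Library depth ranged from 20749747 to 31875723 counts, so that 1 CPM corresponds to 20.7 to 31.9 counts. Transcripts of the sex chromosomes differed too, with Xist at 858 to 1483 CPM in the wild type against 0.0316 to 0.0969 CPM in the knock-out, and Ddx3y at 34.5 to 58.1 CPM in the knock-out against none in the wild type, so genotype and sex cannot be told apart. Knock-out replicate 2 stood apart from the other knock-out libraries, with a chi-square per degree of freedom of 36.4 and 37.0 against them and 5.64 between those 2. All 9 epithelial markers passed the filter, with a summed level of 10390 to 12197 CPM in the knock-out, against 8157 to 8771 CPM in the wild type, but Epcam, Vil1, Cdx1, Cdx2 and Cldn7 fell while Krt8, Krt18 and Krt19 rose. In each of 6 lists of other cell types, 1 to 3 of 5 to 8 markers passed the filter. The immune list reached 23.1 to 23.8 CPM in the knock-out against 3.79 to 6.98 CPM, almost all of it Csf1r and Cd68, with Ptprc at no more than 0.549 CPM and Cd3e and Adgre1 at 0 in all libraries. Smooth muscle, endothelial and mast cell lists reached at most 18.1 CPM, in the wild type, through Acta2, Tek and Kit. The fibroblast list reached at most 0.884 CPM, with Col3a1, Dcn, Lum and Thy1 at 0, and the glial and neuronal list 0.804 to 3.15 CPM. Mitochondrial transcripts took 2.15 to 3.46% of counts in knock-out libraries and 6.18 to 7.58% in wild-type libraries. The part of sex, of these cell types and of the mitochondrial share in the results below was not tested. In bulk RNA, fewer cells of a type and less RNA per cell cannot be told apart.

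The 5 windows that follow show the sequence before the 3 inhibitor genes that differed most between the genotypes. Each is the 250 bases before a RefSeq start (GRCm38.p6), 5′ to 3′ on the gene's strand, and capitals mark matches to the motifs searched. Cdkn2a has an upstream start, from which the p19Arf message begins, and a downstream start for the p16Ink4a message, and both are counted under 1 gene.
Cdkn1a, upstream start, chr17:29090729-29090978, plus strand: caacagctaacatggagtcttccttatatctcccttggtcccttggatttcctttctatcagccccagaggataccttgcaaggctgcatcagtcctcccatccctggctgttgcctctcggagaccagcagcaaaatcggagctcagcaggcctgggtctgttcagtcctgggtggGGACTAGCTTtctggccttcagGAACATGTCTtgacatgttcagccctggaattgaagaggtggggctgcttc
Cdkn1a, downstream start, chr17:29093519-29093768, plus strand: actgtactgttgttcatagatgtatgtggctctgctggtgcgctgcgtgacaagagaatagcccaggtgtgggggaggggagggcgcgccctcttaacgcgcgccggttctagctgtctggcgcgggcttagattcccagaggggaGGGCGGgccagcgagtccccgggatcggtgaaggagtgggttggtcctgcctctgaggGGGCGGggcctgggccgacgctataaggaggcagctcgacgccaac
Cdkn2a, upstream (Arf) start, chr4:89294620-89294869, minus strand: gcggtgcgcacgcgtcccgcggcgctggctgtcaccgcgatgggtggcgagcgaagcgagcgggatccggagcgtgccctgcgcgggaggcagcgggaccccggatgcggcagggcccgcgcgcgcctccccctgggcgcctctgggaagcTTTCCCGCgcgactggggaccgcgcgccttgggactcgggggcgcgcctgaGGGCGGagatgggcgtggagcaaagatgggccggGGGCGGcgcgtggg
Cdkn2a, downstream (Ink4a) start, chr4:89282193-89282442, minus strand: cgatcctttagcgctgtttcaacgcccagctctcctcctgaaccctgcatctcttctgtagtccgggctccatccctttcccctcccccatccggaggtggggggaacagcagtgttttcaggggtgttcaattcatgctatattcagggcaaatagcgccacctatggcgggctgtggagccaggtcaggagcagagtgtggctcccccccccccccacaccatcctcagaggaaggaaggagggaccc
Cdkn2b, chr4:89311033-89311282, minus strand: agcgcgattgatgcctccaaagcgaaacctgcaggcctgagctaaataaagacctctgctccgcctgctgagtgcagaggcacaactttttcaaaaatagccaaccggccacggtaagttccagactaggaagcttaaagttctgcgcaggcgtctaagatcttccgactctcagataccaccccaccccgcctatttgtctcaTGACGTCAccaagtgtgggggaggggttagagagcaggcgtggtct

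The motifs were searched on both strands in the 32851 windows of the RefSeq table: the TATA box (TATAAA), the GC box of Sp and Klf factors (GGGCGG), the E-box (CACGTG), E2F (TTTCCCGC or TTTGGCGC), Tcf/Lef (CTTTGAT or CTTTGAA), AP-1 (TGANTCA), CRE (TGACGTCA), and the degenerate NF-kB and p53 consensus sequences, the last in its single-repeat form. The upstream Cdkn1a window held 2 single-repeat p53 motifs, GGACTAGCTT at 73 to 64 and GAACATGTCT at 51 to 42 bases before the start, a motif found in 7.13% of all windows. The downstream Cdkn1a window held 2 GC boxes, which 32.7% of windows hold. The Arf window was 78.4% G or C with 40 CpG, held 2 GC boxes, and carried TTTCCCGC at 99 to 92 bases before the start, which 0.895% of windows hold. The Ink4a window matched no motif searched, at 60.0% G or C and 7 CpG, and the Cdkn2b window held a CRE at 46 to 39 bases before the start, which 1.55% hold. The medians over all windows were 52.4% and 6 CpG. The NF-kB consensus, present in 7.25% of windows, and the Tcf/Lef motifs, present in 3.21% and 4.46%, were in none of the 12 windows of the 8 members that the table holds, which says only that these letters are absent there. Ccnd1 and Ccnd2 have no window here. A match is a description of the letters and not evidence of binding.

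Across the 10 genes, 5 rose and 2 fell at an adjusted p of 0.05 (edgeR quasi-likelihood test, Benjamini-Hochberg over all genes tested), against 57.4% of the 13759 genes tested that were called in either direction, 30.4% higher and 27.0% lower. The share of members called was therefore near that of all genes. Knock-out and wild-type libraries were fully separate for 8 members, 6 higher and 2 lower. Of all tested genes, 63.1% were without overlap, 32.7% higher and 30.4% lower. The median log2 fold change of the members was 0.33 against 0.00 over all tested genes. The 4 members that differed at least 2-fold, Cdkn2b, Cdkn1a, Cdkn2a and Ccnd1, were all higher in the knock-out. Changes of that size were common, since 23.7% of tested genes had a larger absolute change than Ccnd1, the least changed of these 4.

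**Figure D1:**
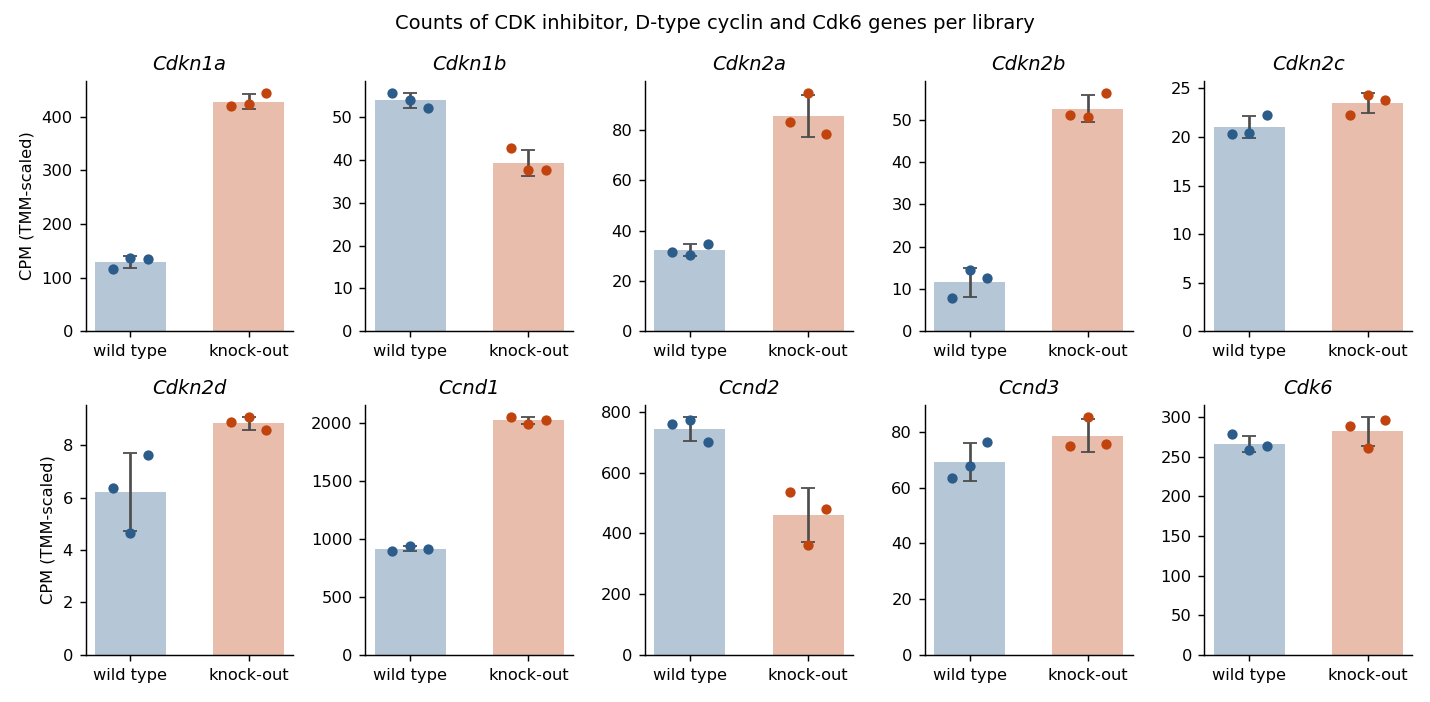
TMM-scaled CPM (vertical axes, each from 0) of the 10 genes in the 3 wild-type (blue) and 3 knock-out (red) libraries. Points are libraries, bars are means and whiskers are ± 1 SD. Cdkn1a, Cdkn2a, Cdkn2b and Ccnd1 stand well apart between the genotypes, Cdkn1b and Ccnd2 are lower in every knock-out library, and Ccnd3 and Cdk6 overlap.

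Among the CIP/KIP inhibitors, Cdkn1a and Cdkn1b moved in opposite directions. Cdkn1a (ENSMUSG00000023067, GRCm38 chromosome 17, 29090976 to 29100727, plus strand) encodes p21, the inhibitor through which p53 arrests the cycle. Its level was 419, 423 and 444 CPM in knock-out replicates 1 to 3 and 115, 137 and 134 CPM in wild-type replicates 1 to 3. The libraries of each genotype lay close together, and the highest wild-type value was less than the lowest knock-out value by a wide margin. The rise was 3.33-fold, with a log2 fold change of 1.74 (standard error 0.081, edgeR adjusted p = 4.2e-09), and 16.7% of tested genes had a larger absolute change. Cdkn1b (ENSMUSG00000003031, chromosome 6, 134920401 to 134925513, plus strand) encodes p27, which accumulates in quiescent cells and is removed by the ubiquitin ligase subunit Skp2. It was at 42.7, 37.7 and 37.6 CPM in the knock-out, against 55.6, 54.0 and 52.2 CPM in the wild type. Every knock-out library was lower, by 1.37-fold in the fit (log2 fold change -0.45, standard error 0.092, edgeR adjusted p = 0.0011). Per kb of exon, Cdkn1a was 2.65, 3.24 and 3.29 times as abundant as Cdkn1b in the wild-type libraries and 12.5, 14.4 and 15.1 times in the knock-out libraries. The related inhibitor gene Cdkn1c, which encodes p57, was low, at 3.74 ± 0.425 CPM in the knock-out, against 4.93 ± 1.03 CPM in the wild type (mean ± SD of 3 libraries, edgeR adjusted p = 0.17).

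Of the INK4 genes, the neighbours Cdkn2a and Cdkn2b on chromosome 4 rose, Cdkn2d rose by a small amount and Cdkn2c did not pass. Cdkn2b (ENSMUSG00000073802, 89306299 to 89311039, minus strand) encodes p15Ink4b, an inhibitor of CDK4 and CDK6 known as a target of TGF-beta signalling. Its levels were 51.1, 50.5 and 56.3 CPM in the knock-out, against 7.77, 14.5 and 12.5 CPM in the wild type. The wild-type values varied widely among themselves, and all lay far under the knock-out values. It had the largest change of the 10 genes, 4.63-fold (log2 fold change 2.21, standard error 0.17, edgeR adjusted p = 3.2e-07), and 13.4% of tested genes changed more. Cdkn2a (ENSMUSG00000044303, 89274471 to 89294653, minus strand) encodes p16Ink4a and, in another reading frame, p19Arf, which stabilises p53 by binding Mdm2. Its counts gave 83.1, 94.7 and 78.5 CPM in the knock-out, against 31.3, 30.1 and 34.7 CPM in the wild type. All knock-out libraries were higher, with replicate 2 the highest, and the fitted rise was 2.66-fold (log2 fold change 1.41, standard error 0.10, edgeR adjusted p = 1.7e-07). Without knock-out replicate 2 its log2 fold change was 1.30. Counts per gene do not separate the p16Ink4a message from the p19Arf message, so it is not known which of them these reads came from.

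Cdkn2c and Cdkn2d, the other two INK4 genes, had the smallest fold changes of the family. Cdkn2c (ENSMUSG00000028551, chromosome 4, 109660876 to 109667189, minus strand), which encodes p18Ink4c, was at 22.3, 24.3 and 23.8 CPM in the knock-out, against 20.3, 20.4 and 22.3 CPM in the wild type. The lowest knock-out and the highest wild-type values were equal to 3 digits, so that it counts as separate only by further decimals, and the gene did not pass (log2 fold change 0.16, standard error 0.11, edgeR adjusted p = 0.24). Cdkn2d (ENSMUSG00000096472, chromosome 9, 21288410 to 21291407, minus strand), which encodes p19Ink4d, was the least abundant member, with 96 counts in wild-type replicate 2. It was at 8.88, 9.06 and 8.56 CPM in the knock-out, against 6.37, 4.65 and 7.62 CPM in the wild type. The genotypes did not overlap, but wild-type replicate 3 came near the knock-out values. Its rise of 1.40-fold was at the edge of the threshold (log2 fold change 0.48, standard error 0.19, edgeR adjusted p = 0.047). The call was lost in 9 of 15 alternatives, among them each removal of 1 library except wild-type replicate 3, with an adjusted p of up to 0.14 when wild-type replicate 2 was left out.

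The D-type cyclins split as well: Ccnd1 rose, Ccnd2 fell and Ccnd3 did not pass. Ccnd1 (ENSMUSG00000070348, chromosome 7, 144929931 to 144939925, minus strand) encodes cyclin D1, a target of mitogenic and Wnt signals. It was at 2049, 1985 and 2024 CPM in the knock-out, against 896, 941 and 909 CPM in the wild type. Libraries of a genotype lay close together and far from the other genotype. It rose 2.21-fold (log2 fold change 1.14, standard error 0.068, edgeR adjusted p = 3.5e-08). Ccnd2 (ENSMUSG00000000184, chromosome 6, 127125162 to 127152193, minus strand) encodes cyclin D2. Its values were 538, 362 and 480 CPM in the knock-out, against 762, 773 and 700 CPM in the wild type. Knock-out replicate 2 was the lowest library and the other 2 knock-out libraries were also lower than every wild-type library. The fitted fall was 1.62-fold (log2 fold change -0.70, standard error 0.12, edgeR adjusted p = 3.5e-04), and without knock-out replicate 2 the log2 fold change was -0.58 (edgeR adjusted p = 8.0e-07). Ccnd3 (ENSMUSG00000034165, chromosome 17, 47505051 to 47599691, plus strand), the gene of cyclin D3, was at 74.7, 85.4 and 75.6 CPM in the knock-out, against 63.3, 67.7 and 76.4 CPM in the wild type. The genotypes overlapped, since wild-type replicate 3 exceeded 2 knock-out libraries, and the difference did not pass (log2 fold change 0.18, standard error 0.096, edgeR adjusted p = 0.12). Exons of Ccnd1 and Ccnd3 share 1100 and 361 bases with the opposite-strand genes LTO1 and Bysl. The strand setting of the counting is not given in the sources used here, so reads in those stretches cannot be assigned with certainty. LTO1 had 2776 counts in all libraries against 251164 for Ccnd1, whereas Bysl had 11938 against 12328 for Ccnd3.

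Cdk6 (ENSMUSG00000040274, chromosome 5, 3341485 to 3531008, plus strand), the kinase partner of the D-type cyclins, was at 289, 261 and 296 CPM in the knock-out, against 278, 258 and 264 CPM in the wild type. Knock-out replicate 2 lay within the wild-type range, and the difference did not pass (log2 fold change 0.08, standard error 0.075, edgeR adjusted p = 0.38). Cdk6 lies on chromosome 5, where 685 genes averaging 5 CPM or more had a median log2 fold change of 0.40, against -0.03 for 9365 genes of the other autosomes. On the chromosomes of the other members the medians lay between -0.10 and -0.01. Cdk4, the other partner kinase (picked once its values were known), was at 455 ± 43.0 CPM in the knock-out, against 581 ± 31.4 CPM in the wild type and fell 1.28-fold (edgeR adjusted p = 0.0029).

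**Figure D2:**
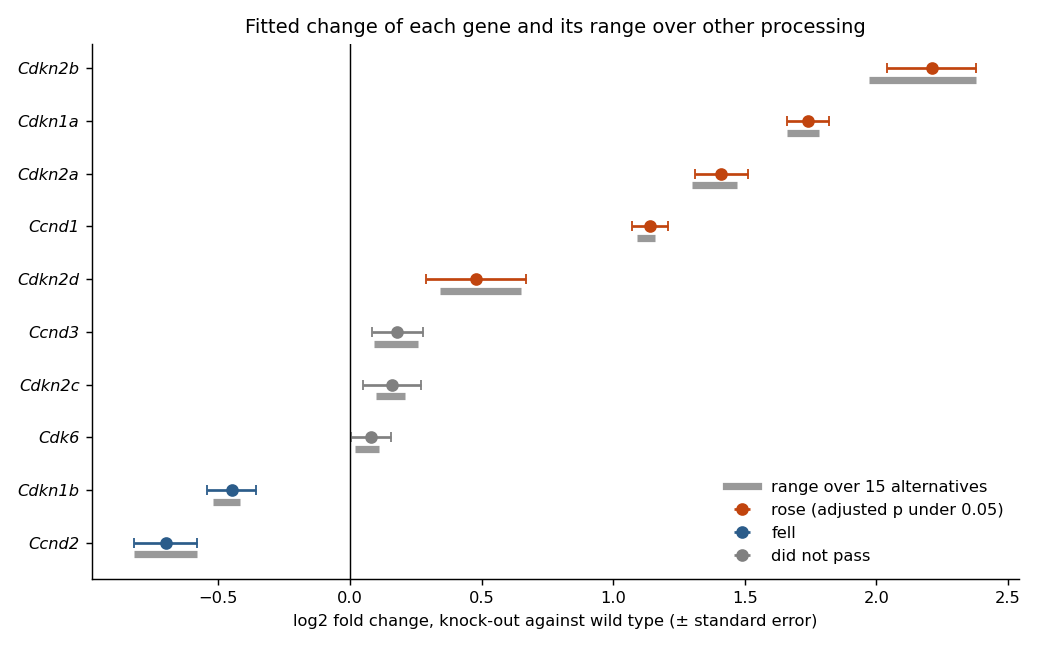
Log2 fold change of each gene in the knock-out against the wild type (horizontal axis, points, ± standard error) and the range of the same value over 15 alternatives (grey bars). Points are red where the gene rose, blue where it fell and grey where it did not pass an adjusted p of 0.05. No grey bar crosses 0, and the bars of Cdkn2b, Cdkn1a, Cdkn2a and Ccnd1 all lie above 1.

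Levels between genes were compared per kb of annotated exon. In the wild type the order was Ccnd1 (194 ± 4.95 CPM per kb), Cdk4 (179 ± 9.67), Ccnd2 (79.2 ± 4.21), Cdkn1a (36.2 ± 3.33), Cdkn2a (27.4 ± 2.02), Cdk6 (19.1 ± 0.729), Cdkn1b (11.8 ± 0.375), Cdkn2b (8.34 ± 2.48), Ccnd3 (7.88 ± 0.764), Cdkn2c (7.81 ± 0.422) and Cdkn2d (3.95 ± 0.946). The ranges of Cdkn2b, Ccnd3 and Cdkn2c overlapped, and all other neighbours in that order were separate. In the knock-out Ccnd1 reached 429 ± 6.81 CPM per kb, which ranked 45 among 13741 genes compared with rank 135 in the wild type. Cdkn1a (121 ± 3.83) and Cdkn2a (72.9 ± 7.11) stood higher than Ccnd2 (48.9 ± 9.54) there, the reverse of the wild-type order. Cdkn2b (37.9 ± 2.26) overlapped Ccnd2 and exceeded Cdk6 (20.2 ± 1.32). Ccnd3, Cdkn2c and Cdkn1b, at 8.95 ± 0.680, 8.74 ± 0.388 and 8.64 ± 0.650, could not be ordered beyond their spread. These levels depend on the annotated exon length, which for Cdk6 is 13989 bases and for Cdkn2a 1172 bases.

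The make-up of each family shifted with these changes. Ccnd1 supplied 68.3, 69.0 and 69.9% of the summed D-type cyclin level per kb in the wild-type libraries and 86.9, 89.7 and 87.8% in the knock-out libraries, while Ccnd2 went from 26.9 to 29.1% down to 8.18 to 11.4%. The sum was 282 ± 7.28 CPM per kb in the wild type and 487 ± 15.7 in the knock-out. For the INK4 genes the sum was 47.5 ± 3.98 and 125 ± 5.91, with Cdkn2a at 55.1 to 60.9% of it in the wild type and 55.0 to 61.2% in the knock-out. Cdkn2b supplied 12.7 to 22.3% in the wild type and 27.5 to 33.2% in the knock-out. The summed D-type cyclin level was 2.74 to 3.15 times that of the 6 inhibitor genes together in the wild type and 1.81 to 2.01 times in the knock-out. Against Cdk4 and Cdk6 together it was 1.33 to 1.48 times in the wild type and 2.70 to 3.23 times in the knock-out. These are sums of transcripts, described without a test, and say nothing of protein.

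**Figure D3:**
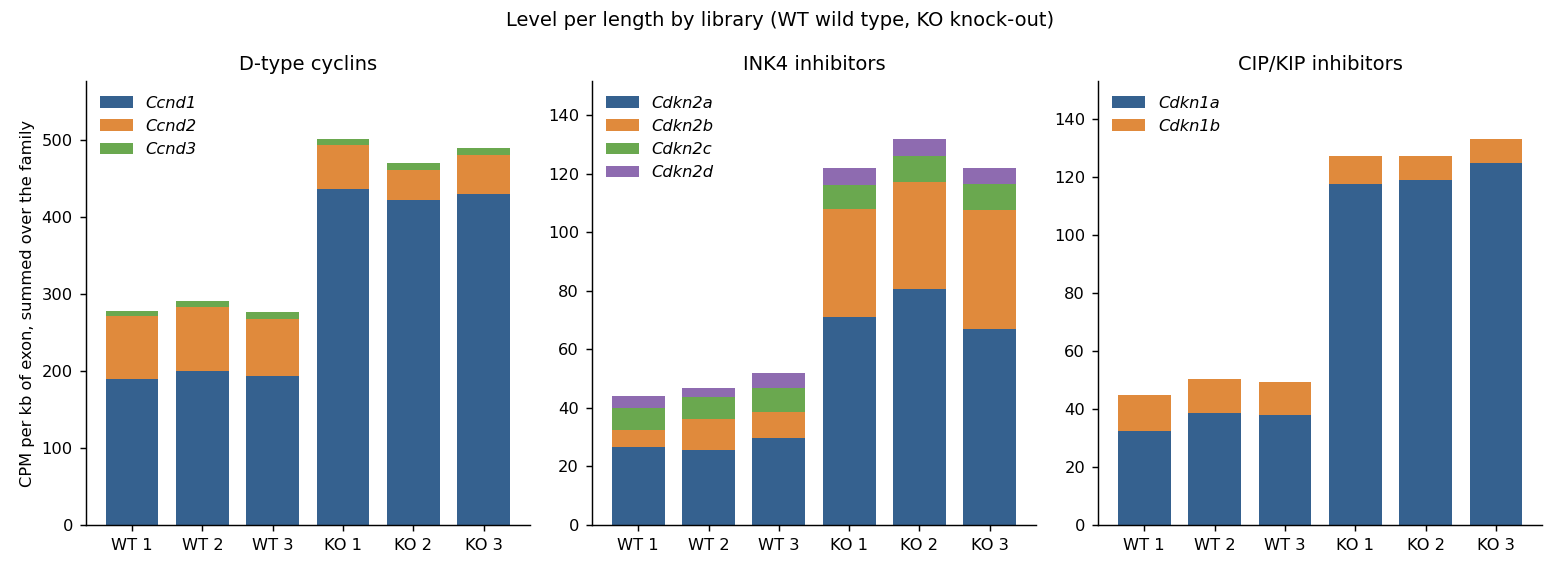
Level per kb of exon (CPM per kb, vertical axes from 0) in each wild-type (WT) and knock-out (KO) library, stacked by gene, for the D-type cyclins, the INK4 inhibitors and the CIP/KIP inhibitors. The total is higher in every knock-out library in all 3 panels, and within the D-type cyclins the Ccnd2 share is lower.

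The nearest tested protein-coding genes on each side, up to 2, were examined for each member. Apart from members they were 33 different genes, of which 9 rose, 8 fell and 16 did not pass, so that 51.5% were called against 57.4% of all tested genes, with log2 fold changes from -1.51 to 2.77. Around Cdkn2a and Cdkn2b, the neighbour Mtap, a methionine salvage enzyme gene 93.4 kb from Cdkn2a, rose from 155 to 349 CPM (log2 fold change 1.18, edgeR adjusted p = 3.5e-08). Tusc1, 4023.1 kb beyond Cdkn2b, had a log2 fold change of 1.26 (edgeR adjusted p = 0.0011) at 5.02 CPM in the knock-out. Klhl9, 552 kb on the other side, had 0.31 (edgeR adjusted p = 0.0086), a call lost without knock-out replicate 1. Caap1, the next gene after Tusc1, had -0.20 and did not pass. Over chromosome 4 as a whole, the median log2 fold change was -0.01.

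The genes beside the other members that passed the test moved in both directions. Beside Cdkn1a, Srsf3 and Ppil1 fell, with log2 fold changes of -0.44 and -0.27, and Stk38 and Cpne5 did not pass. The libraries of the genotypes overlapped for Ppil1, and its call was lost in 6 of 15 alternatives, among them the replicate block and leaving out knock-out replicate 1 or 3 or wild-type replicate 1 or 3 (edgeR adjusted p of up to 0.16). Beside Ccnd1, the chloride channel gene Ano1 rose from 110 to 753 CPM (log2 fold change 2.77, edgeR adjusted p = 3.9e-10), whereas LTO1 and Tpcn2, at 0.13 and -0.20, did not pass. Beside Ccnd2, Parp11 rose and Cracr2a fell, with log2 fold changes of 0.81 and -1.51, while D6Wsu163e and Tigar, at -0.23 and -0.07, did not pass. Beside Cdkn1b, Gprc5a rose with a log2 fold change of 1.34 and Crebl2, Gpr19 and Ddx47 did not pass. Beside Cdkn2d, Atg4d, Kri1 and Ap1m2 fell with values of -0.70, -0.47 and -0.28, and Slc44a2 rose with 1.10.

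**Figure D4:**
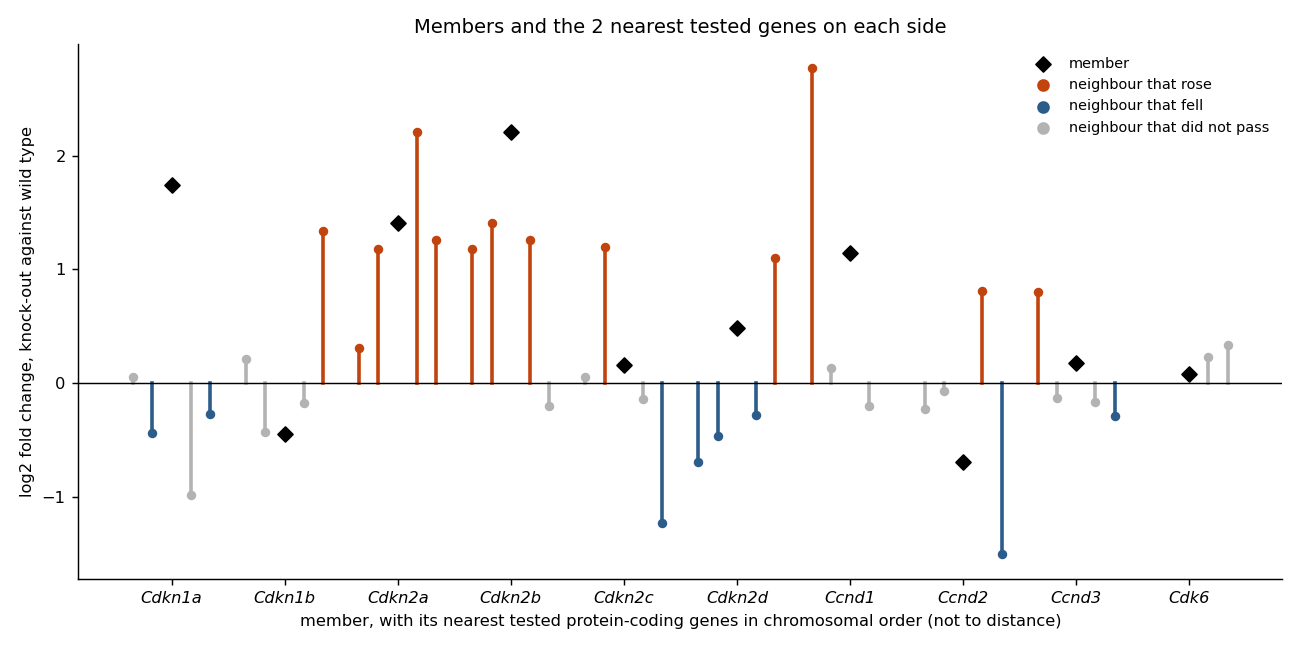
Log2 fold change (vertical axis) of each member (black diamonds) and of its nearest tested protein-coding genes in chromosomal order (lines ending in points, up to 2 on each side, not drawn to distance). Red, blue and grey mark neighbours that rose, fell or did not pass, and Cdkn2a, Cdkn2b, Mtap and Tusc1 are drawn more than once. Of the 4 neighbours of Cdkn2a and Cdkn2b that are no member, 3 rose, where 30.4% of all tested genes rose, and Cdk6 and Ccnd1 have fewer neighbours because they lie near a chromosome end.

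The circuit around these genes was described with 8 lists, read against the same 57.4% of all tested genes that were called and their median log2 fold change of 0.00. Among 18 other CDKs, cyclins and their switches, 13 fell, 1 rose and 4 did not pass, with a median log2 fold change of -0.43. Ccna2, the cyclin of S phase, fell 1.63-fold to 230 ± 9.74 CPM (edgeR adjusted p = 2.7e-06), and Ccnb2, a mitotic cyclin, fell 1.53-fold to 98.4 ± 4.60 CPM (edgeR adjusted p = 2.5e-05). Cdc25b, a phosphatase that activates CDK1, fell 1.56-fold to 59.4 ± 6.07 CPM (edgeR adjusted p = 9.2e-05). The gene that rose was Mnat1, a subunit of the CDK-activating kinase, and its call was lost without wild-type replicate 1 or 2. The cyclin E genes Ccne1 and Ccne2 (picked once their values were known), partners of CDK2 after cyclin D, were at 54.6 ± 3.00 against 57.4 ± 1.81 CPM and 22.3 ± 1.82 against 22.7 ± 2.30 CPM, and neither passed.

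The retinoblastoma family, E2F and DREAM complex list had 10 of 20 genes lower, 0 higher and a median of -0.30. E2f2, an activator E2F, fell 26.0-fold from 21.0 ± 0.966 to 0.780 ± 0.449 CPM (edgeR adjusted p = 1.2e-08), far more than the rest of the list. E2f2 (chromosome 4, 136172394 to 136196057) lies near Id3 (136143497 to 136145755), which fell 7.78-fold. Whether these changes are linked was not tested. Mybl2, a partner of the DREAM subunits in mitotic gene activation, fell 1.88-fold to 38.4 ± 2.10 CPM (edgeR adjusted p = 2.0e-06), and E2f8, a repressor E2F, fell 1.42-fold (edgeR adjusted p = 2.5e-04). Rb1, the substrate of cyclin D kinases (picked once its values were known), was at 45.0 ± 3.11 against 41.9 ± 3.76 CPM (edgeR adjusted p = 0.42). Of 25 E2F target genes of S phase entry, 21 fell and 0 rose, with a median of -0.54. In neither list did a gene rise at an unadjusted p of 0.05 in edgeR (0 genes), and DESeq2 and limma voom also called 0 higher. Among the E2F targets, the helicase subunit gene Mcm5 fell 1.76-fold to 227 ± 27.2 CPM, Uhrf1, which guides maintenance DNA methylation, 1.75-fold to 120 ± 13.4 CPM, and Rrm1, a subunit of ribonucleotide reductase, 1.46-fold to 307 ± 7.98 CPM. Mcm7, Rrm2, Gins2 and Dbf4 did not pass. Mcm7 and Dbf4 lie on chromosome 5, where the median log2 fold change was 0.40. Tyms, Slbp and Cdc7 lie there too and fell, and Pola1, which also fell, lies on chromosome X. The part of the chromosome in these values was not tested. Ccnd1 and most of the listed E2F target genes differed in opposite directions between the genotypes. Members and lists were chosen with earlier results of these data known, so this contrast is not independent evidence.

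Genes of the Arf, Mdm2 and p53 circuit were mostly higher: 15 of 22 rose, 3 fell and 4 did not pass, with a median log2 fold change of 0.71. Perp, a desmosomal p53 target, rose 3.92-fold to 696 ± 13.2 CPM (edgeR adjusted p = 1.1e-09), and Phlda3, an inhibitor of Akt, 3.01-fold to 316 ± 22.9 CPM (edgeR adjusted p = 2.1e-08). Eda2r, a receptor gene on chromosome X, fell 5.07-fold to 11.9 ± 0.504 CPM (edgeR adjusted p = 2.6e-08), and Sesn1 also fell. Mdm2, the ubiquitin ligase that Arf inhibits, rose 3.00-fold to 343 ± 31.9 CPM, and Trp53 itself fell 1.41-fold to 180 ± 13.8 CPM from 253 ± 19.1 CPM (edgeR adjusted p = 6.5e-08 and 3.1e-04, both picked once their values were known). The list was drawn up with earlier results on p53 targets in these libraries known, so its direction is not independent evidence.

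Regulators that are known to silence or switch on the inhibitor genes went both ways. Of 20 Polycomb subunits and Jumonji demethylases, 7 rose (5 to 8 over the alternatives) and 7 fell (6 to 8), with a median of -0.08. Among those that rose, Kdm2b (log2 fold change 0.37, a call kept in 11 of 15 alternatives) lies on chromosome 5, where the median was 0.40. Among those that fell, Kdm6a (-1.13) lies on chromosome X, and genotype and sex cannot be told apart. Cbx7, a Polycomb reader known as a repressor of the Cdkn2a locus, fell 3.95-fold to 16.6 ± 1.12 CPM (edgeR adjusted p = 3.3e-08), and Jarid2, a cofactor of the H3K27 methyltransferase complex, fell 2.08-fold to 23.4 ± 2.36 CPM (edgeR adjusted p = 2.9e-06). Phc2 rose 2.41-fold to 234 ± 6.82 CPM (edgeR adjusted p = 6.5e-08). Bmi1 and Ezh2, the best known repressors of the same locus (picked once their values were known), moved apart, with Bmi1 at 75.9 ± 5.08 against 48.5 ± 2.77 CPM and Ezh2 at 116 ± 5.27 against 170 ± 9.90 CPM (edgeR adjusted p = 5.9e-05 and 6.6e-05). Of 22 tested transcription factors of CDK inhibitor genes, 9 rose and 7 fell (median 0.02). Id2, an inhibitor of basic helix-loop-helix factors, rose 4.27-fold to 405 ± 11.7 CPM (edgeR adjusted p = 2.3e-10), Klf4, a known activator of Cdkn1a, 3.09-fold to 185 ± 4.64 CPM (edgeR adjusted p = 3.7e-09), and Ets1, known to activate Cdkn2a, from 2.26 ± 1.22 to 57.2 ± 8.68 CPM (edgeR adjusted p = 5.6e-09). Smad3, a TGF-beta effector known to activate Cdkn2b (picked once its values were known), rose 2.47-fold to 224 ± 26.6 CPM (edgeR adjusted p = 1.8e-07). Of the other Smad genes in the list, Smad2 rose (log2 fold change 0.54, edgeR adjusted p = 9.2e-05) and Smad4 did not pass (log2 fold change -0.09). The factors that fell were Foxo1, Foxo4, Ets2, Id3, Tbx3, Runx1 and Cebpa. Their log2 fold changes ran from -0.51 (Foxo4, on chromosome X) to -2.96 (Id3). Ets2 (picked once its values were known) fell from 459 ± 10.4 to 316 ± 18.6 CPM (edgeR adjusted p = 4.1e-05). Roles in activating inhibitor genes are given here only for factors that rose, and these do not describe the whole list. Dmtf1, which rose with 0.34, and Tbx3, which fell with -0.58, lie on chromosome 5, where the median was 0.40. The Dmtf1 call was kept in 10 of 15 alternatives.

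Of 20 tested transcription factors of D-type cyclin genes, 5 rose, 4 fell and 11 did not pass, with a median of 0.02. Ctnnb1, the gene of beta-catenin, rose 2.41-fold to 3740 ± 303 CPM (edgeR adjusted p = 7.5e-08), and the AP-1 subunit genes Junb and Fosl1 rose 2.31-fold to 227 ± 13.6 CPM and 23.6-fold to 52.3 ± 4.49 CPM (edgeR adjusted p = 1.2e-07 and 1.8e-10). Jun, Tcf7l2, Etv5 and Relb fell, and Lef1 and Tcf7l1 were too low to test. Among 18 genes of inhibitor and cyclin turnover, 3 rose and 5 fell (median 0.02). Fbxw8, which rose with a log2 fold change of 0.30, lies on chromosome 5, where the median was 0.40. Cryab, known as a chaperone that assists the Fbxo4 ligase of cyclin D1, rose 2.35-fold to 68.5 ± 7.31 CPM (edgeR adjusted p = 6.9e-07). Skp1a, a core ligase subunit, fell 1.52-fold to 246 ± 22.1 CPM, and Dtl, which marks p21 for destruction in S phase, 1.49-fold to 71.9 ± 0.641 CPM (edgeR adjusted p = 4.0e-05 and 5.4e-05). Skp2, the subunit that recognises p27 (picked once its values were known), fell 1.54-fold to 27.8 ± 2.85 CPM (edgeR adjusted p = 6.1e-04), so Skp2 and Cdkn1b were both lower in the knock-out.

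**Figure D5:**
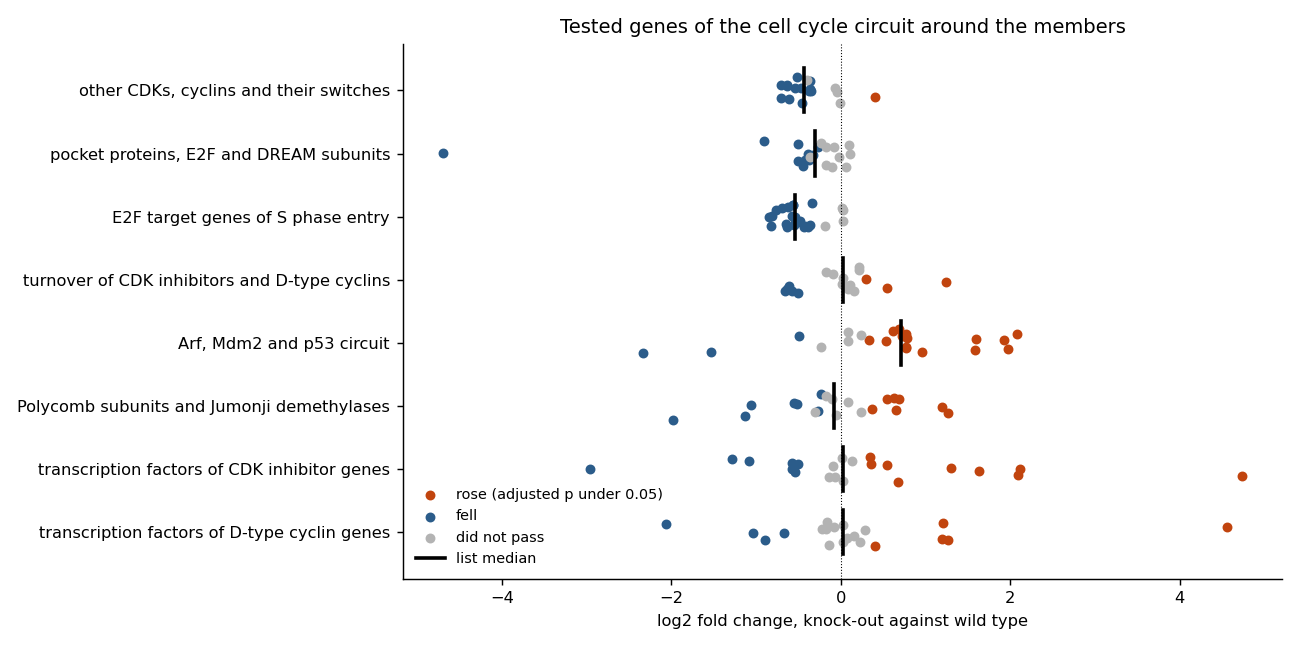
Log2 fold change (horizontal axis) of every tested gene in the 8 lists around the members, red where it rose, blue where it fell and grey where it did not pass, with the list median as a black bar. Points are spread vertically for visibility. E2F targets lie almost all left of 0 with a median of -0.54, and the Arf, Mdm2 and p53 list lies mostly right of 0 with a median of 0.71.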

How the data were processed

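RNA-seq counts of 6 libraries were used, grouped by the labels' genotype. Libraries were stranded and polyA-selected per the labels' protocols, and the submitters' processing notes name STAR and GRCm38. The counting program, strand setting and annotation version were not given in the sources used here. Deposited files hold raw counts per gene as the authors left them, without normalization, totalling 20749747 to 31875723 per library. GENCODE (GRCm38) named 49326 of 49585 genes and gave merged exon lengths, and RefSeq (GRCm38.p6) the start-site windows.

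The edgeR 4.0.16 quasi-likelihood test (R 4.3.3) was fitted to all genes passing filterByExpr (minimum count 10, minimum total 15). It used TMM scaling and genotype as the only term. The same test was also run on simulated data. These were drawn with each gene's mean over all 6 libraries and the model's dispersions, without the gene-wise quasi-likelihood part. No result given here rests on them. P-values were adjusted by Benjamini-Hochberg over the whole table (threshold 0.05). Standard errors used the model's weights and quasi-likelihood dispersion. No pair of libraries matched within sampling noise (chi-square per degree of freedom at least 5.64). Named genes were the 10 members, Chuk, the nearest 2 tested genes on each side of members past the threshold, and in each list up to 3 genes with the smallest adjusted p and at least 5 CPM. Others complete a count or were picked once their values were known. Members and lists were chosen with earlier results of these data known. Alternatives were scaling by DESeq2 1.42.0 size factors, upper quartile or library size, no filter or 1 CPM in 3 libraries, the DESeq2 Wald test, limma 3.58.1 voom, a replicate block, an adjusted p of 0.01 and leaving out each library.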

Additional observations from a re-analysis of the deposited data

How the results depend on the processing

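No result changed direction for any of the 10 genes in the 15 alternatives, and for 9 of them every alternative kept the side of the threshold. Cdkn2d was the exception: its adjusted p was 0.077 with upper-quartile scaling, 0.05 with library size alone, 0.065 with the replicate block and 0.026 to 0.14 when 1 library was left out. The numbers of genes called over the whole table stayed within 1.5 times the reported counts. No pairing of the libraries by the replicate numbers of the labels was seen. Deviations from the genotype means of same-numbered libraries correlated with r of 0.108, -0.110 and -0.190 across genes. Not every library correlated best with its own number. With 3 libraries per genotype, such correlations cannot exclude a pairing. With the replicate block, 3959 genes were higher and 3473 lower, against 4182 and 3713 without it. Upper-quartile scaling moved the median log2 fold change of all genes by -0.05. Of the circuit lists, the E2F targets kept 20 to 22 genes lower and the p53 circuit 14 to 15 higher over the alternatives, whereas the retinoblastoma, E2F and DREAM list ranged from 7 to 13 lower. The 1 gene that rose among the other CDKs and cyclins was lost at an adjusted p of 0.01 (0 genes). Precision is lowest for Cdkn2d, whose lowest library held 96 counts.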
